A study of Homo sapiens with 14 samples.

Results

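Loss of MPP8 was compared directly with loss of TASOR2 in K562 cells, gene by gene and without a control in the difference. Of the 35805 gene rows of the authors' table, 15933 genes entered, because their mean was above 0 on the log2 scale in at least one of the 2 knockdowns. K562 is an established human line from a chronic myeloid leukaemia. All cells of the study carried dCas9-KRAB, an inactive Cas9 fused to a repressor domain, which lowers transcription where a guide RNA takes it (CRISPR interference). The 6 groups were untransduced cells (2 libraries), cells with the control guide sgAAVS1 (3), and cells with guides against TASOR (sg1 and sg2), TASOR2 (sg1, sg2 and sg3), MPP8 (sg1 and sg2) or PPHLN1, the Periphilin gene (sg1 and sg2). Guides had been present for 7 days when total RNA was extracted, and the untransduced cells carry no day in the labels. Each knockdown was partial, each guide was 1 library, and the labels name no separate cultures or clones.

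All levels below are the authors' group means in log2 RPM (reads scaled to a common library size), with no SD and no n, since the table holds no single libraries. The TASOR2 mean was found to rest on 2 libraries where the labels list 3 guides, and which of the guides these were is unknown here. A difference is the MPP8 mean minus the TASOR2 mean. The value after ± is the half-width of its 95% Poisson interval at the recovered depth, which covers counting error only and no spread between libraries or guides. A gene was called higher or lower in MPP8 when the means differed by at least 1 (2-fold), the larger mean was above 0 and the interval left out 0. A gene with one mean below 0 entered only through the other, so the sign of its difference was fixed by entry. No p-value can be had from these means.

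HUSH is a chromatin complex of TASOR, MPP8 and Periphilin. MPP8 binds histone H3 methylated at lysine 9 through its chromodomain, and the complex silences retroelements, recently integrated DNA and some cellular genes. TASOR2 is a relative of TASOR that can take its place beside MPP8 and Periphilin in a second complex, HUSH2, which is known for keeping interferon-stimulated genes low. MPP8 is therefore shared by both complexes, whereas TASOR2 belongs to HUSH2. The comparison addresses what loss of the shared subunit changed in K562 RNA beyond loss of the HUSH2 subunit.

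The libraries had comparable depth, with geometric means per library between 5857937 reads in TASOR2 and 7406968 in untransduced cells, and 5925920 in MPP8. The erythroid identity of K562 was seen in both knockdowns: the transcription factor GATA1 stood at 7.39 in MPP8 and 7.22 in TASOR2, the fetal globin HBG2 at 7.22 and 7.26, and the transferrin receptor TFRC at 8.48 and 8.79. The median difference over all 15933 genes was 0.06.

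The targeted genes came first as a check of the labels. FAM208B, the symbol under which the table lists TASOR2 (chromosome 10, 5684838 to 5763740 on hg38), had a level of 6.03 in its own knockdown, 7.86 in MPP8, 7.45 in sgAAVS1 and 7.69 in untransduced cells. MPHOSPH8, which encodes MPP8 (chromosome 13, 19633681 to 19673459), stood at 4.70 in its own knockdown, 6.6 in TASOR2, 6.52 in sgAAVS1 and 6.55 in untransduced cells. Each was lowest in the group labelled for it. The direct differences were 1.83 ± 0.12 for FAM208B and -1.90 ± 0.18 for MPHOSPH8, so the 2 targets differed between the groups by nearly the same size in opposite directions. The transcript left relative to sgAAVS1 was 28.2% for MPHOSPH8 and 37.5% for FAM208B. The third HUSH subunit gene shared by both complexes, PPHLN1, differed little (6.66 in MPP8, 6.80 in TASOR2), and FAM208A, the TASOR gene, stood at 7.34 in MPP8 and 7.69 in TASOR2, a difference of -0.35 ± 0.09. Among 35 genes of HUSH and of histone H3 lysine 9 methylation, the only calls were these targets, FAM208B higher and MPHOSPH8 lower.

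By the rule of size, 651 genes were higher in MPP8 than in TASOR2, which is 4.09% of the genes entered, and 249 were lower, which is 1.56%. This split depended on scaling. It was 555 to 286 once the median difference was set to 0, and 403 to 420 after quantile normalization. Most of the calls were on scarce transcripts. Of the 2537 genes whose larger mean was at most 2, 364 were higher (14.3%) and 182 lower (7.17%). Of the 3722 genes between 2 and 5, 254 were higher (6.82%) and 63 lower (1.69%). Of the 9674 genes with a mean above 5, only 33 were higher (0.341%) and 4 lower (0.0413%). Protein-coding genes made up 81.3% of the genes entered, 57.3% of the higher genes and 34.9% of the lower genes, whereas antisense RNAs made up 6.14%, 20.3% and 16.9% and lincRNAs 5.45%, 13.1% and 21.7%. At the threshold, C11orf65 and AMT lay just inside with 1.0 ± 0.58 and 1.0 ± 0.26, and MOV10L1 and RASA4 just outside with 1.0 ± 0.95 and 1.0 ± 0.56. On the lower side SLC25A34 and RP11-589N15.2 lay just inside, and ZNF829 and WFIKKN1 just outside, all within rounding of -1.0. Genes at the threshold thus had the same size of difference whether called or not.

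**Figure D1:**
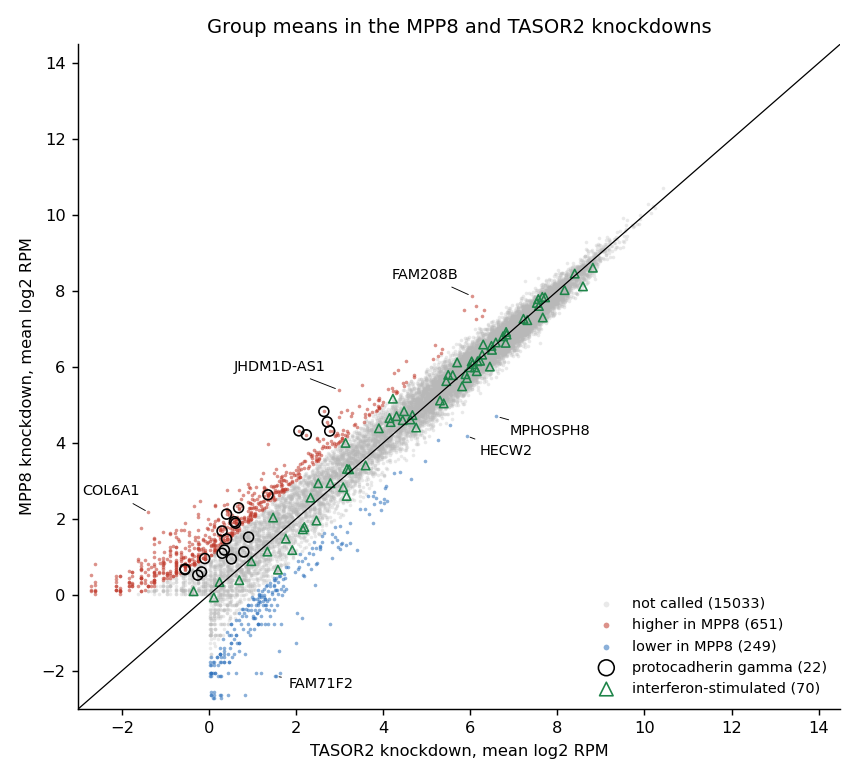
Group means of the 15933 genes in the TASOR2 knockdown (horizontal axis) and in the MPP8 knockdown (vertical axis), both in log2 RPM, with the line of equal means. The 651 higher and 249 lower genes fan out at low levels, protocadherin gamma genes (circles) lie above the line, and interferon-stimulated genes (triangles) lie along it.

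The gamma protocadherins were the largest block of neighbouring genes that were higher in MPP8. They encode neuronal cell adhesion proteins from a tandem array of alternative first exons on chromosome 5. Of 53 clustered protocadherins 22 entered, all of the gamma cluster. Of these, 15 were higher (68.2%) and none was lower. Over all genes 4.09% were higher, with 14.3% at means up to 2 and 6.82% between 2 and 5. The median difference of the 22 was 1.25 against 0.06 over all genes. The larger mean had to exceed 0 to enter, so the 31 others are not counted as unchanged. PCDHGA5 had levels of 2.06 in TASOR2 and 4.32 in MPP8, beside 2.34 in sgAAVS1, 2.89 in untransduced cells, 4.38 in TASOR and 4.46 in PPHLN1. PCDHGA4 had 2.64 in TASOR2 and 4.83 in MPP8, beside 3.15, 3.53, 4.95 and 5.19 in the same order of groups. In PCDHGA5 and PCDHGA4 TASOR2 was therefore below both controls, and MPP8 close to the TASOR and PPHLN1 knockdowns. The controls differed over the 22 genes. The median of MPP8 minus sgAAVS1 was 1.49 and of MPP8 minus untransduced 0.50. For TASOR2 these medians were 0.15 and -0.51. In PCDHGA9 and PCDHGA11 MPP8 lay next to the untransduced cells.

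The direct difference was 2.25 ± 0.44 for PCDHGA5, 2.19 ± 0.37 for PCDHGA4, 1.98 ± 0.43 for PCDHGB3 and 1.84 ± 0.36 for PCDHGA6. The smallest differences were those of PCDHGA9 (0.33 ± 0.84) and PCDHGA11 (0.43 ± 0.91), at levels near 1 in MPP8 that leave the interval wide. All 22 differences were above 0, and 15 had an interval that left it out. PCDHGC3, PCDHGC4, PCDHGC5, PCDHGA12 and PCDHGB7 had TASOR2 means below 0 and entered only through MPP8. Their sign was therefore fixed by entry, and PCDHGC5, PCDHGA12 and PCDHGB7 are among the genes called. In the table the spans of these genes overlap and end at the same place, because all gamma transcripts share their last exons. Reads from the shared exons cannot be told apart between members, so the 22 values are not independent of each other. Their transcripts have a median GC content of 55.2%. With the trend on GC content removed (see the values further on) the median was 1.13 and 11 were called higher, where 3.46% of all genes were.

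The promoters of this block are shown because its members moved together. RefSeq promoter sequences (GRCh38.p14, 250 bases before to 50 after the annotated start) matched 20 of the 22 genes. The 10-letter word found in the largest number of these genes, GCGCCGCTGT, was picked by counting all 10-letter words in these promoters. It occurs in 9 of the 20 and, on either strand, in 0.131% of the 35116 promoters of the same length (46 promoters), and since it was picked for its number here these shares are no test. Of the genes with the word, 6 of 9 were called higher, against 13 of the 20. The 4 windows below, on the forward strand of chromosome 5, carry the word in capitals.
PCDHGA1, chr5:141330390-141330449: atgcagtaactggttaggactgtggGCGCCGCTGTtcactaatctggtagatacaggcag
PCDHGB4, chr5:141387604-141387663: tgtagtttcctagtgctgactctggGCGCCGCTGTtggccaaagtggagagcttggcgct
PCDHGA8, chr5:141392555-141392614: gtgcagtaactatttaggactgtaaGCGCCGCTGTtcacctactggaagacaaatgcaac
PCDHGA9, chr5:141402701-141402760: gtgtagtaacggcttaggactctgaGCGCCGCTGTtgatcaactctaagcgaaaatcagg
The word begins 99 bases before the annotated start of PCDHGA1, 69 before that of PCDHGB4, 53 before that of PCDHGA8 and 52 before that of PCDHGA9. PCDHGA1, PCDHGB4 and PCDHGA8 were called higher (1.34 ± 0.80, 1.61 ± 0.75 and 1.72 ± 0.82) and PCDHGA9 was not. The word was present beside called and uncalled members alike. PCDHGA4 and PCDHGA5, which had the largest differences, lack these letters in the 300-base window.

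Zinc finger genes of chromosome 19 are described as a list because many lie close together. Numbered ZNF genes encode mostly repressive DNA-binding proteins with KRAB domains, and they lie in clusters along that chromosome. Of 219 entered on chromosome 19, 10 were higher and none lower (median -0.02), and of 209 on other chromosomes 3 were higher and none lower. The share of 10 in 219 is close to the background of 4.09% over all genes, and the list median was below the 0.06 of all genes. With the GC trend removed, 14 were higher, against 3.46% of all genes, and the median was 0.12 against 0.06; the transcripts of this list have a median GC content of 42.4%. ZNF671 had levels of 3.17 in TASOR2 and 4.85 in MPP8, beside 3.44 in sgAAVS1, 3.76 in untransduced cells, 4.74 in TASOR and 5.06 in PPHLN1, a difference of 1.68 ± 0.31. ZNF418 had 2.47 in TASOR2 and 4.10 in MPP8, beside 2.36, 2.51, 3.27 and 4.15 in the same order, a difference of 1.62 ± 0.40. ZNF671 was thus high in MPP8, TASOR and PPHLN1, and ZNF418 highest in MPP8 and PPHLN1.

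Toward the end of the long arm, 5 called genes, each within 100 kb of the next, lay between 57437970 and 57593777 on chromosome 19: AC004076.9, VN1R1, AC003005.4, ZNF549 and ZIK1, out of 13 genes entered there. The median TASOR2 level of these 5 was -0.82, so most of them entered only through MPP8 and had their direction fixed by entry. ZIK1, a zinc finger gene, had 2.88 in TASOR2, 4.19 in MPP8, 0.94 in sgAAVS1, 1.5 in untransduced cells, 2.89 in TASOR and 4.61 in PPHLN1. It was above the controls in TASOR2 as well, and higher again in MPP8 by 1.31 ± 0.36. ZNF528-AS1, an RNA named as antisense to a zinc finger gene, had 2.73 in TASOR2, 4.48 in MPP8, 1.27 in sgAAVS1 and 4.8 in PPHLN1, a difference of 1.75 ± 0.36. At the ZNF221 locus (chromosome 19, 43891804 to 43967709) 3 neighbours were called, and the strongest, the antisense RNA RP11-15A1.2, had -1.55 in TASOR2, 1.75 in MPP8 and 1.63 in PPHLN1, a difference of 3.30 ± 1.48. RP11-15A1.2 entered only through MPP8, so its direction was fixed by entry. Of the 651 higher genes 173 lay within 100 kb of another, in 73 runs, and 12 of these runs held 3 or more genes, the longest being the 16 genes at the gamma protocadherins. Among the 249 lower genes 21 lay in 10 runs, 1 of them with 3 genes. How many neighbours sets of these sizes would hold was not tested, and neighbours that overlap may share reads.

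Inflammatory cytokine genes had 3 higher and 0 lower of 22, or 13.6% against 4.09% of all genes, 14.3% of those at means up to 2 and 6.82% of those between 2 and 5. The 3 were IL6, IL10 and IL11. IL10 and IL11 had TASOR2 means below 0 and entered only through MPP8, so their direction was given by entry. IL11 had -1.55 in TASOR2, 0.31 in MPP8, 0.27 in sgAAVS1 and -0.35 in untransduced cells, so MPP8 lay close to sgAAVS1 there. IL6, a cytokine of the acute phase response, had 1.53 in TASOR2, 3.30 in MPP8, 1.30 in sgAAVS1, 1.54 in untransduced cells, 3.28 in TASOR and 3.64 in PPHLN1, a difference of 1.77 ± 0.55. The RNA AC002480.3, which lies on chromosome 7 (22563337 to 22573996) near IL6 (22725884 to 22732002), had 3.51 in TASOR2, 5.53 in MPP8, 3.50 in sgAAVS1, 5.22 in TASOR and 5.57 in PPHLN1, a difference of 2.02 ± 0.27. The TASOR2 mean lay with both controls in IL6 and with sgAAVS1 in AC002480.3, and in both genes MPP8 lay with the other HUSH knockdowns. For AC002480.3 the TASOR2 mean may join unequal libraries (see the whole-read pairs further on). IL10, an anti-inflammatory cytokine, had no read in the 2 TASOR2 libraries and a mean of 0.52 in MPP8. Against a floor of 3 counts over the TASOR2 group IL10 was at least 5.59-fold higher in MPP8. IL10 was also low in TASOR (-1.5), PPHLN1 (-1.36), sgAAVS1 (-1.35) and untransduced cells (-0.80), so here only MPP8 had a mean above 0. In all, 4 called genes had no reads in TASOR2 and 3 had none in MPP8.

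**Figure D2:**
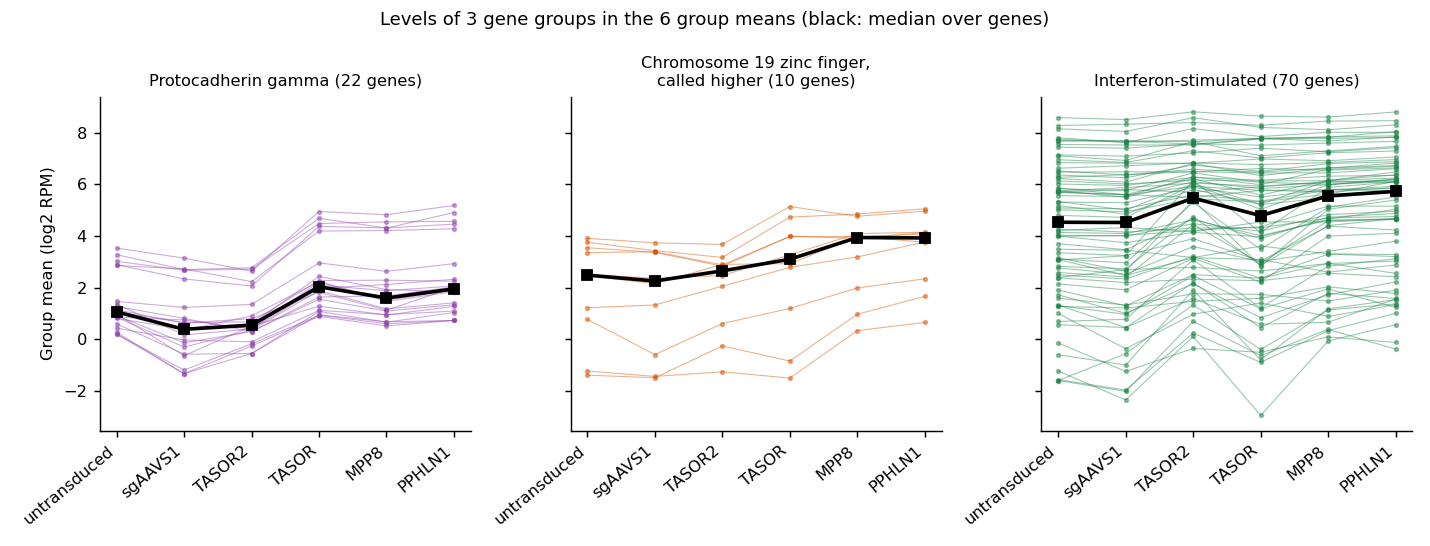
Levels (log2 RPM) of the 22 gamma protocadherins, of the 10 chromosome 19 zinc finger genes called higher and of the 70 interferon-stimulated genes in the 6 group means, 1 thin line per gene and the median in black. The protocadherin median in TASOR2 lies between those of sgAAVS1 and untransduced cells, which differ. The protocadherin medians in MPP8, TASOR and PPHLN1 lie above both controls. The interferon-stimulated genes are high in TASOR2, MPP8 and PPHLN1. The zinc finger panel shows only genes picked by the rule, so its step from TASOR2 to MPP8 is given by that choice.

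Where the controls lay divided the called genes. The control means of untransduced and sgAAVS1 cells took no part in the difference, but they define the split that follows. Of the 651 higher genes, both controls were nearer MPP8 in 412 (63.3%), nearer TASOR2 in 91 (14.0%), and on different sides in 148 (22.7%). Over all 15933 genes these shares were 46.6%, 29.4% and 23.9%. In the 412 genes the median level was 0.56 in TASOR2, and 1.89, 1.71, 1.93, 1.99 and 2.03 in untransduced, sgAAVS1, TASOR, MPP8 and PPHLN1. The rule and the split themselves set the controls with MPP8 and away from TASOR2 there. TASOR and PPHLN1 took no part in either, and their medians lay near that of MPP8. In the 91 genes the median was 0.53 in TASOR2, 0.59 in sgAAVS1 and 0.86 in untransduced cells, and 1.58, 1.90 and 1.85 in TASOR, MPP8 and PPHLN1. There TASOR and PPHLN1, which took no part in the rule or the split, were high with MPP8. By the rule of size TASOR2 was below both controls in 170 of the 651 genes, and MPP8 above both in 53. Over all 15933 genes these counts were 203 and 116.

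Among the 651, 83 genes (12.7%) were also higher in PPHLN1 than in sgAAVS1, where 2.44% of all genes were, and 64 (9.83%) were higher in TASOR than in sgAAVS1, where 1.51% of all genes were. Neither of these differences uses the MPP8 or TASOR2 libraries. Among the 249 lower genes, which were scarcer still (a median larger mean of 1.23 against 1.78), the counts were 15 (6.02%) and 8 (3.21%). The 651 also held 25 genes (3.84%) that were higher in untransduced than in sgAAVS1 cells, with no knockdown in either, against 1.05% of all genes. The shares over all genes are not matched for level, and scarce genes are called more often. Of all 6 means TASOR2 was the lowest in 573 of the higher genes (88.0%) and MPP8 the highest in 266 (40.9%). In genes that were not called TASOR2 was the lowest in 28.4% and MPP8 the highest in 13.6%. The rule itself sets TASOR2 below MPP8 in the higher genes, so these shares describe the genes and test nothing.

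**Figure D3:**
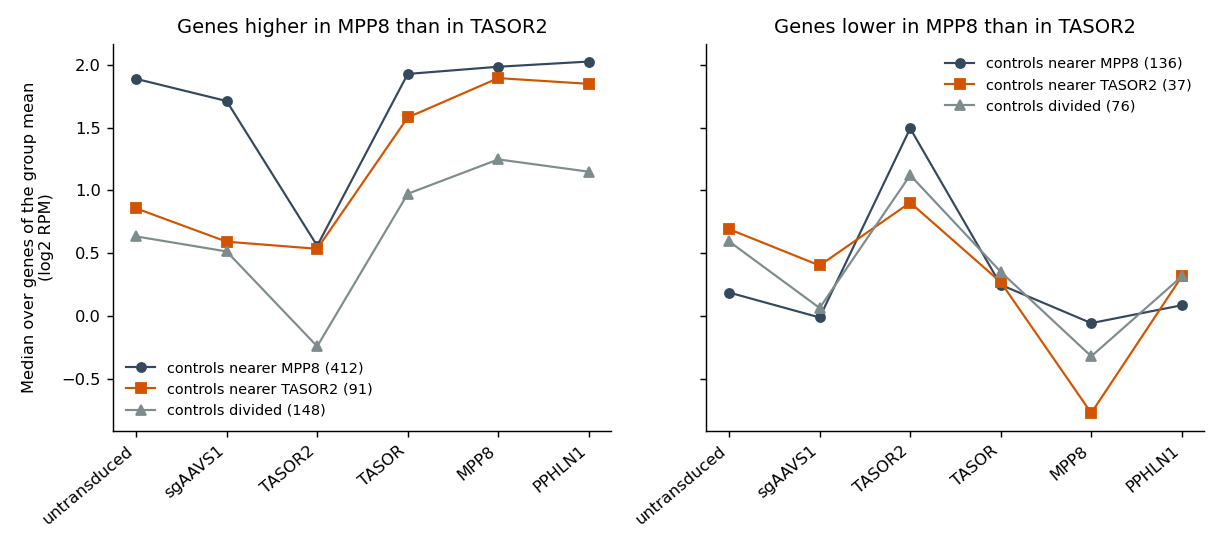
Median level over genes (log2 RPM) in each of the 6 groups for the higher genes (left) and the lower genes (right), split by the knockdown to which both control means were nearer. In the 412 higher and 136 lower genes with controls nearer MPP8, the TASOR and PPHLN1 medians lie near that of MPP8. In the 91 higher genes with controls nearer TASOR2, TASOR and PPHLN1 are high with MPP8. The places of MPP8, TASOR2 and the controls are given by the rule and the split.

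Several abundant genes were lower in TASOR2 than in every other group. ATRN, which encodes the membrane protein attractin, had 5.86 in TASOR2 and between 7.43 and 7.58 elsewhere, a difference of 1.63 ± 0.12. DYRK2, a protein kinase, had 4.52 in TASOR2 and between 6.06 and 6.29 elsewhere, a difference of 1.64 ± 0.20. NPRL3, a subunit of the GATOR1 complex that restrains mTORC1, had 6.13 in TASOR2 and between 7.51 and 7.77 elsewhere, a difference of 1.47 ± 0.11. CHAC1, a glutathione-degrading enzyme induced through ATF4, had 4.33 in TASOR2 and between 5.71 and 6.04 elsewhere, a difference of 1.58 ± 0.21. In these 4 genes MPP8 lay among or close to the other groups, controls included.

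CHAC1 was the only one called of 51 genes of the ATF4 and unfolded protein response. DDIT4, a stress-induced inhibitor of mTORC1, lay just outside the rule (7.26 in TASOR2 and 8.26 in MPP8). Of the 51 intervals 35 lay above 0 and 7 below, against 5287 and 3651 of all 15933 genes. These counts are not matched for level, and intervals are narrower in abundant genes. The list had median levels of 7.69 in TASOR2 and 7.83 in MPP8, against 5.60 and 5.67 over all genes. Its median difference was 0.13, and 0.08 with the GC trend removed, against 0.06 over all genes both ways. MBIP, a protein of a histone acetyltransferase complex, had 3.02 in TASOR2 and 4.8 in MPP8, a difference of 1.78 ± 0.33. FITM2, which acts in lipid droplet formation, had 1.35 in TASOR2 and 3.98 in MPP8, a difference of 2.63 ± 0.56. COL6A1, a collagen VI chain, had the largest upward difference, 3.56 ± 1.39, from 1 and 5 reads in the TASOR2 libraries and 23 and 31 in the MPP8 libraries. PCK1, the gluconeogenic PEPCK enzyme, had -0.35 in TASOR2 and 2.33 in MPP8 (2.68 ± 1.0). In COL6A1 and PCK1 sgAAVS1 stood at 1.42 and 2.05, so that TASOR2 was again the group apart. Both genes had TASOR2 means below 0 and entered only through MPP8, so their direction was fixed by entry.

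Only 87 of the 249 lower genes are annotated as protein-coding, and many of the strongest were antisense RNAs and lincRNAs high in TASOR2. RP4-657D16.3, an antisense RNA, had 2.77 in TASOR2 and -0.77 in MPP8, beside 0.96 in sgAAVS1 and 0.18 in untransduced cells, a difference of -3.55 ± 1.12. FAM71F2 (chromosome 7, 128672288 to 128686875) had 1.53 in TASOR2 and -2.14 in MPP8, from 15 and 19 reads against 0 and 2, where 0 reads stand as 0.9, a difference of -3.67 ± 1.79. The lincRNA RP11-274B21.10 beside it had 2.15 in TASOR2 and -0.61 in MPP8 (-2.76 ± 1.09). Both members of this neighbouring pair were above every other group in TASOR2. RP4-657D16.3 and this pair had MPP8 means below 0 and entered only through TASOR2, so their direction was fixed by entry.

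Of the 4 lower genes with a mean above 5, one was the target MPHOSPH8. HECW2, an E3 ubiquitin ligase, had 5.92 in TASOR2 and 4.18 in MPP8 (-1.74 ± 0.22), MIR22HG, the host RNA of miR-22, 5.25 and 4.07 (-1.18 ± 0.24), and SH3BP5-AS1 5.52 and 4.47 (-1.06 ± 0.21). Of the 249 lower genes the controls were nearer MPP8 in 136 (54.6%) and nearer TASOR2 in 37 (14.9%), against 46.6% and 29.4% of all genes. In the 136 the median was 1.49 in TASOR2 and between -0.06 and 0.25 in the other 5 groups, of which only TASOR and PPHLN1 took no part in the choice of these genes. TASOR2 was above both controls by the rule in 95 of the 249 genes, and MPP8 below both in 6. Over all 15933 genes these counts were 164 and 13.

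Interferon-stimulated genes, which encode antiviral effectors and sensors, differed little between the knockdowns. Of 70 entered (87 in the table), none was higher and none lower, and the median difference was 0.03. Over all genes 4.09% were higher and 1.56% lower, but only 0.341% and 0.0413% of those with a mean above 5. The list had median levels of 5.47 in TASOR2 and 5.56 in MPP8, so few calls would be made there in any list. The counting interval left out 0 in 16 upward and 14 downward, against 5287 and 3651 of all 15933 genes. Of the 70, 62 differed by less than 0.5 (88.6%), against 78.2% of all genes. SAMD9, an antiviral factor, had 6.15 in TASOR2 and 5.89 in MPP8, beside 3.24 in sgAAVS1 and 3.08 in untransduced cells, 4.14 in TASOR and 6.09 in PPHLN1. IFIH1, which encodes the RNA sensor MDA5, had 5.39 in TASOR2, 5.04 in MPP8 and 2.64 in sgAAVS1. SP110, a nuclear body protein, had 5.30, 5.11 and 2.96. Their direct differences were -0.26 ± 0.15, -0.35 ± 0.19 and -0.19 ± 0.19, small beside the distance of either knockdown from sgAAVS1.

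The most unequal members were PARP10, an ADP-ribosyltransferase (4.22 in TASOR2, 5.16 in MPP8, 0.94 ± 0.24), APOL3 (3.14 and 4.0, 0.86 ± 0.35) and the antiviral GTPase MX2 (1.58 and 0.66, -0.92 ± 0.81). PARP10 came to 0.60 with the GC trend removed. ADAR, the RNA-editing enzyme and the most abundant member, had 8.81 in TASOR2 and 8.61 in MPP8. Antigen presentation genes gave no call either among 18 entered, with a median of 0.04. Their median levels were 5.94 in TASOR2 and 5.98 in MPP8, where calls are few in all genes. The immunoproteasome subunit PSMB8 had 3.66 in TASOR2 and 3.59 in MPP8 against 1.36 in sgAAVS1, and HLA-C, a class I heavy chain, had 4.32 and 4.64 against 3.53. A call needs a 2-fold difference, so smaller differences between the knockdowns in these lists are not excluded.

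Other lists had few calls. Collagen and matrix genes had 5 higher and 0 lower of 35 (14.3% against 4.09% of all genes and 6.82% of those at means between 2 and 5). Of the 5, COL6A1 and COL23A1 had TASOR2 means below 0 and entered only through MPP8, so their direction was given by entry. The list median of 0.44 became 0.15 with the GC trend removed, and the transcripts of this list have a median GC content of 60.3%. COL28A1 had 1.40 in TASOR2, 2.68 in MPP8, 1.10 in sgAAVS1 and 3.49 in TASOR (1.29 ± 0.60). No gene was called among 46 erythroid genes, 26 of cholesterol synthesis, 40 of proliferation and 81 of the cytoplasmic ribosome. The median levels of these lists lay above 5, where only 0.341% of genes were higher and 0.0413% lower. Of 55 canonical histone genes only HIST1H2BA was called, lower, and of 30 germline genes only TEX101, lower. MT-ND6, the light-strand gene of the mitochondrial genome, was the only mitochondrial gene called (6.26 in TASOR2, 7.34 in MPP8, 1.08 ± 0.11).

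LINC genes had 12 higher and 3 lower of 180 (6.67% and 1.67%), close to the 6.82% and 1.69% of all genes at means between 2 and 5, and their median was 0.24. Named antisense RNAs had 35 higher and 4 lower of 347 (10.1% and 1.15%), with a median of 0.30. JHDM1D-AS1 had 2.98 in TASOR2 and 5.40 in MPP8, beside 4.83 in sgAAVS1, a difference of 2.42 ± 0.32. No source used here says whether counting used strand, so reads of an antisense RNA and its partner may not be told apart.

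Lists of other cell types were read in the same way, although K562, a leukaemia line, expresses some of these genes itself. Of 31 lymphoid genes 13 had no reads in MPP8 and 12 none in TASOR2, and the list summed to 288 and 238 RPM. Of the 13 lymphoid genes that entered 6 were higher (46.2%) and 1 lower, against 4.09% and 1.56% of all genes and 14.3% and 7.17% of those at means up to 2. PRF1, the perforin gene, had 2.62 in TASOR2, 4.11 in MPP8 and 3.98 in sgAAVS1 (1.49 ± 0.39), so that TASOR2 was below the control. Of 22 myeloid genes entered 3 were higher and 1 lower, and 21 of the 31 in the list had a mean above 0, the list summing to 1080 RPM in MPP8 and 979 in TASOR2. Of 46 non-blood tissue genes 32 had no reads in MPP8 and 32 none in TASOR2, the list summed to 428 RPM in MPP8 and 377 in TASOR2, and of the 10 that entered 3 were higher and none lower. Of 15 megakaryocyte and platelet genes 3 were higher, among them ITGA2B, the platelet integrin chain (6.32 in TASOR2, 7.51 in MPP8, 1.19 ± 0.11), and the collagen receptor GP6 (2.94 and 4.26, 1.32 ± 0.35). Fewer cells of a type and less RNA per cell cannot be told apart in bulk RNA, and the part of such cells in the differences was not tested.

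The difference followed the GC content of the transcript. Over the 9347 genes with a mean above 5 and a GC value, its rank correlation with GC content was 0.72, a description across genes of 1 table that share the same libraries. From the lowest decile of transcripts by GC content (up to 38.7%) to the highest decile (from 62.3%), the median difference went from -0.26 to 0.37. Higher calls went from 13 to 130 per decile and lower calls from 62 to 9. The higher genes had a median GC content of 56.0%, the lower genes 42.9% and all genes entered 49.3%. GC-rich transcripts were thus relatively high in MPP8 and GC-poor ones relatively high in TASOR2.

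Relative to sgAAVS1 the trend lay mostly on the TASOR2 side. The median difference of TASOR2 went from 0.35 in the lowest decile to -0.16 in the highest, and that of MPP8 from 0.09 to 0.19. The rank correlation with GC content was -0.71 for TASOR2 minus sgAAVS1 and 0.31 for MPP8 minus sgAAVS1. It was also -0.56 for untransduced minus sgAAVS1, in cells with no knockdown, and against untransduced cells it was -0.51 for TASOR2 and 0.58 for MPP8. The share of the trend on each side therefore changed with the control taken. Whether it comes from the libraries or from the cells was not tested.

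With the running median on GC content removed over the 15649 genes with a GC value, 541 genes were higher (3.46%) and 199 lower (1.27%). Of the 643 higher genes with a GC value, 475 were called both ways and 168 lost their call, and of the 229 lower genes 180 were called both ways and 49 lost it. The correction added 66 higher and 19 lower calls. Genes of high GC content that lost the call included ITGA2B (0.97 after removal), APOBR, an apolipoprotein receptor (1.13 before and 0.85 after), and MEGF6 (1.12 and 0.75). Those that gained one included TGIF1, a homeobox repressor (0.82 and 1.03), and on the lower side FES, a tyrosine kinase (-0.87 and -1.13). The targets, PCDHGA5, ZNF671, IL6, ATRN and DYRK2 kept their calls, at 2.02 for FAM208B, -1.77 for MPHOSPH8, 2.13 for PCDHGA5, 1.66 for ZNF671, 1.90 for IL6, 1.66 for ATRN and 1.86 for DYRK2.

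**Figure D4:**
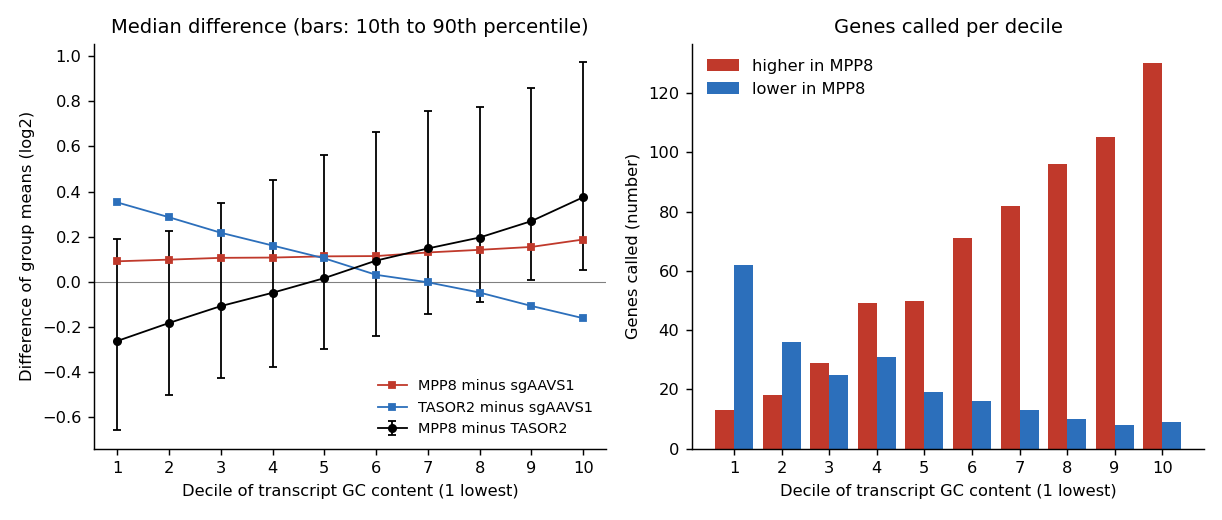
Left, median over genes of the difference of group means (log2) in each decile of transcripts by GC content, for MPP8 minus TASOR2 (black, bars from the 10th to the 90th percentile of genes) and for each knockdown minus sgAAVS1. Right, the number of genes called in each decile, where higher calls go from 13 to 130 and lower calls from 62 to 9.

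The means also hold some information on single libraries. A mean of 2 libraries on the log2 scale fixes the product of their whole read counts, and the product came out whole (within 0.2) in 100% of the 7187 TASOR2 and 7348 MPP8 values tested, those with products between 400 and 200000. The factors of the product limit which pairs of counts are possible. The pair cannot be tied to a guide, and how unequal in depth the 2 libraries were is not known. Where only 1 pair within 4-fold was possible, the median ratio of the 2 counts was 1.27 in TASOR2 (90th percentile 1.95) and 1.16 in MPP8 (1.41), beside 1.09 in TASOR, 1.10 in PPHLN1 and 1.24 in untransduced cells. Counting error alone would give about 1.08. The TASOR2 ratio was 1.23 for transcripts of GC content up to 42% and 1.35 for those above 60%, and the ratio went from 1.18 to 1.31 in untransduced cells and from 1.12 to 1.19 in MPP8 over the same range.

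Even the most even possible pair differed at least 2-fold in 254 of the 7187 TASOR2 values (3.53%) and in 13 of the 7348 MPP8 values (0.177%). Among the TASOR2 values of called genes these were 18 of 141 higher (12.8%) and 6 of 70 lower genes (8.57%), against 3.30% of genes not called. Called genes had fewer reads there (a median of about 43 per library against 174), which widens counting error as well. In 12 genes no pair within 4-fold could give the TASOR2 product, and in no gene was this so for MPP8.

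HECW2 was the clearest case. Its TASOR2 product of 125459 allows no pair more even than 109 and 1151 reads, a 10.6-fold gap, while its most even MPP8 pair was 99 and 117. At the mean depth the lower TASOR2 count corresponds to a level of 4.22, next to the MPP8 mean of 4.18, and the higher count to 7.62. At equal depth, the call of HECW2 as lower thus rested on 1 TASOR2 library. JHDM1D-AS1 had 22 and 97 as the most even TASOR2 pair, or levels of 1.91 and 4.05, both below the MPP8 mean of 5.40. For DYRK2 the only pair within 4-fold was 87 and 209, against 413 and 437 in MPP8, and for AC002480.3 it was 37 and 121, against 267 and 281. FITM2 had 6 and 37 at the most even. In these 4 genes, if the pair was the one named and the depths were equal, TASOR2 was lower than MPP8 in each library but by unequal amounts.

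Other differences had even pairs available. CHAC1 had 102 and 137 as its only TASOR2 pair within 4-fold, RP4-657D16.3 39 and 41, and FAM71F2 15 and 19. For PCDHGA5 the most even pairs were 24 and 25 reads in TASOR2 and 117 and 119 in MPP8, and for PCDHGA4 35 and 38 and 157 and 180, although less even pairs were possible too. Some called gamma protocadherins had no pair as even in TASOR2. The most even was 20 and 38 reads for PCDHGB3 and 4 and 13 for PCDHGB1. For IL6 the only MPP8 pair within 4-fold was 58 and 59. For MPHOSPH8, the target, it was 120 and 197 reads, a 1.64-fold gap beside the median of 1.16.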

How the data were processed

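Per the labels' protocols, ribosomal RNA was depleted and stranded libraries were made. The submitters' processing notes name the tools cutadapt and Bowtie2 and the build hg38, and no source used here gives versions, counter or annotation. Per the file headers and values, the authors deposited the untransduced group's mean log2 RPM and, for the other 5 groups, a score: the group mean divided by that value. Multiplying gave back each group mean, in which 0 reads stand as 0.9. In 102 rows the untransduced mean lies near 0 and the recovered value is less exact. From 35805 rows, 87 with a shared symbol were dropped. GC content came from the longest GENCODE 29 transcript, for 12969 genes by symbol and 2680 by position (80% of both spans shared), and 284 genes had none. Its running median over 40 bins was removed in an alternative. The planned test over libraries could not be run on group means, so a rule of size, checked on simulated data, took its place.

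Named genes were the targets, 15 per direction by strength, 8 per direction with a mean above 5, up to 3 per list, those that changed call with GC content, and those at the threshold; SAMD9, IFIH1, SP110, PARP10, APOL3, MX2, PSMB8, HLA-C, DDIT4 and the genes of the whole-read pairs were picked after their values were seen. Members and lists were chosen with earlier results of these data known. Python 3.11.15, pandas 2.3.3 and NumPy 2.4.6 were used.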

Additional observations from a re-analysis of the deposited data

How the results depend on the processing

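No paired analysis was possible because the table holds group means without single libraries, and no library could be left out for the same reason. The balance of higher and lower genes depended on scaling: 651 and 249 as deposited, 555 and 286 with the median difference set to 0, and 403 and 420 with quantile normalization. A filter of either mean above 2 left 287 higher and 67 lower genes, a minimum difference of 1.5 left 249 and 137, and a wider counting interval left 318 and 82, each a stricter rule by construction. After seeing the data 2 more settings were added. An interval widened by the spread between libraries gave 590 and 230. Keeping only the 6933 genes whose TASOR2 product lay in the tested range and has a pair within 2-fold gave 123 and 64. Only 141 of the 651 higher and 70 of the 249 lower genes had a TASOR2 product in that range. Of these, 18 and 6 had no pair within 2-fold, so most calls were dropped by the range and not by uneven pairs. Removing trends on GC content and length gave 518 and 205, no filter on the means 681 and 266, and every row kept 652 and 249. Some list medians near 0 changed sign: that of the interferon-stimulated genes was -0.06 with quantile normalization, and that of the chromosome 19 zinc finger genes 0.12 with the GC trend removed. Of the named genes, 17 lost and 10 gained a call with the GC trend removed, 5 and 4 with median centring, and 8 and 5 with quantile normalization. Depth limits calls at low levels, where 364 higher and 182 lower genes lay at means up to 2.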
